A study of Danio rerio with 2 samples.

Results

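The 9 genes described here encode paralogs of 3 enzymes of glycolysis in zebrafish: the hexokinases hk1, hk2 and gck, the phosphofructokinases pfkpa, pfkpb and pfkla, and the enolases eno1a, eno1b and eno2. They were taken by name from a table of 34326 genes in which the authors compared rraga mutant with wild-type cells, and all 9 were found and carried a p-value. RNA was sequenced from cells that express GFP from the Cldnk promoter, sorted by flow cytometry from TL (Tupfel long fin) larvae at 5 days post fertilization and labelled as oligodendrocytes, which are the glia that wrap axons of brain and spinal cord in myelin. Cells of wild-type and of rraga mutant larvae were compared, both carrying the Cldnk:GFP reporter, with 1 record per genotype in which, per the labels, 2 independent biological replicates are merged. The mutated gene, rraga, encodes the small GTPase RagA, which acts on the lysosome surface; the sources used here do not give the allele or say whether larvae were pooled.

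Glycolysis converts glucose to pyruvate. Hexokinases trap glucose in the cell by phosphorylating it, phosphofructokinase commits the sugar to the pathway, and enolase makes phosphoenolpyruvate near its end. In mammals the isoforms of each enzyme differ in where they are used. Hexokinase 1 is the common form of brain and hexokinase 2 that of muscle, and both have a high affinity for glucose. Glucokinase has a low affinity and serves liver and the pancreatic islet. The phosphofructokinase genes have platelet, liver and muscle types, and the enolase genes have a ubiquitous, a neuronal and a muscle type. In mammals, oligodendrocytes use glycolysis and pass lactate to axons. Many zebrafish genes of these families exist as a pair of duplicate copies, marked a and b.

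Expression is given as a level, the larger of both genotype means, in a unit that the authors' deposited table does not name. Genes that share a fold and a p exactly had levels that fell with their length, so the level is a value per length and levels of different genes can be set side by side. The table holds no value per replicate, so no spread between replicates can be shown, and a value carried by 1 of the replicates cannot be told apart from one shared by both. To express precision, the size of each deposited log2 fold was divided by the normal quantile that matches its two-sided p, which gives an implied standard error (SE) that assumes a normal test. The mean of the other genotype was approximated as the level divided by the deposited fold. Genes with levels such as a single read would give still carried finite log2 folds, such as -2.43. At low counts the fold thus need not be a plain ratio of the means. Low means obtained this way, and sums and shares that use them, are rough. In bulk RNA fewer cells of a type and less RNA per cell cannot be told apart. For rraga itself the fold was 0.44 on the log2 scale (level 33.1, p = 0.477) per the authors' deposited table, which does not check the genotype, since a mutant allele can still be transcribed. The 9 genes were selected on their folds and p-values in this contrast, with no numerical limit, so these values are a description and no test is drawn from them.

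In the rraga mutant, 3 of the 9 genes rose and 1 fell at the authors' FDR p under 0.05, and 5 did not pass. pfkpa, hk2 and eno1b rose by 41.2-fold, 28.5-fold and 15.6-fold, and gck fell by 18.2-fold, per the authors' deposited table. Over all 25757 genes with a p, 0.221% passed that threshold, 0.132% as higher and 0.0893% as lower; nothing is read from this contrast, since the members were selected on it. Each of the 3 steps held 1 paralog that rose, and in each step at least 1 other paralog of the family did not pass. This pattern is a description only, because the members were selected on these values and few genes pass at all. The 4 adjusted p-values lay between 0.0305 and 0.0413, close to the threshold, and the next lowest among the members was 0.682. By unadjusted p, the 4 genes stood at ranks 35 (pfkpa), 37 (eno1b), 44 (gck) and 51 (hk2) of the 57 genes that passed.

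**Figure D1:**
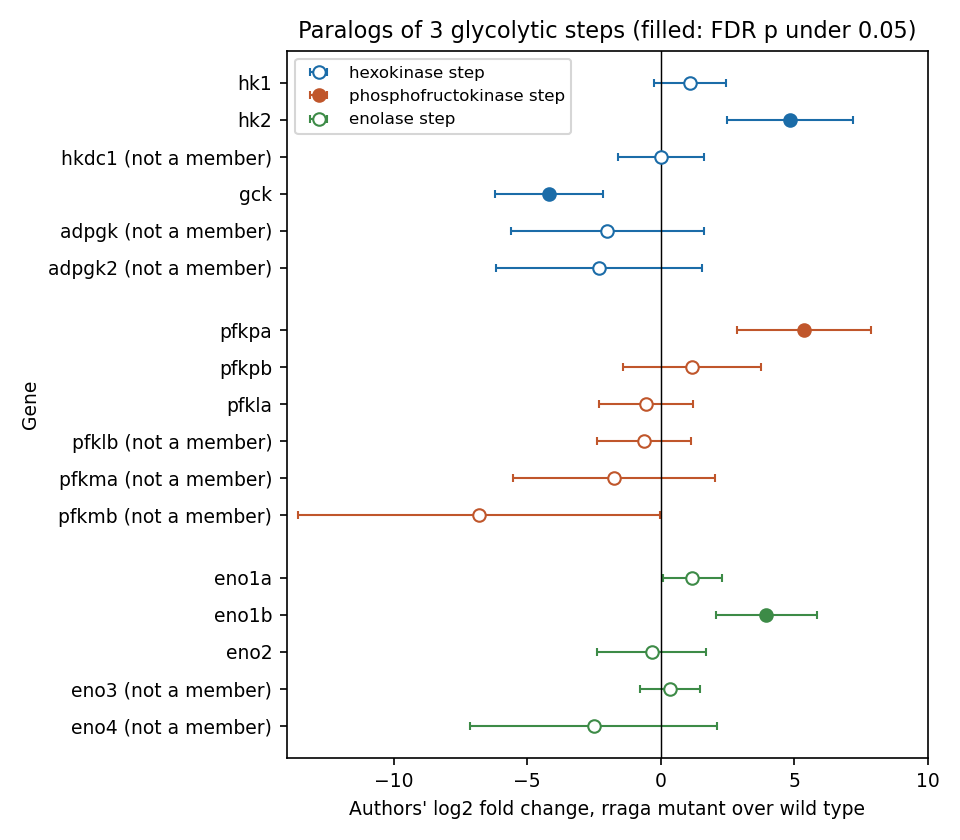
The authors' log2 fold change of each detected gene of the 3 steps, with bars for the implied 95% interval. Filled points passed the authors' FDR p under 0.05: pfkpa, hk2 and eno1b lie at 5.36, 4.83 and 3.96, and gck lies at -4.18.

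At the hexokinase step 1 paralog rose and another fell. gck (ENSDARG00000068006, chromosome 8, 40437570 to 40450987, GRCz11) had a level of 24.2 and a log2 fold of -4.18 (implied SE 1.03, adjusted p = 0.0363) per the authors' deposited table. Its level belongs to the wild type, and the deposited fold puts the mutant mean near 1.33. hk2 (ENSDARG00000101482, chromosome 5, 13369819 to 13507654) had a level of 3.77 and a log2 fold of 4.83 (implied SE 1.21, adjusted p = 0.0413) per the authors' deposited table. Its wild-type mean was near 0.132, so hk2 was the lowest in wild type of the 4 genes of the vertebrate hexokinase family measured here. hk1 (ENSDARG00000039452, chromosome 13, 22842438 to 22877363) had a level of 9.0 and a log2 fold of 1.09 (implied SE 0.68) per the authors' deposited table, where its p was 0.112 and its adjusted p 0.815. Its implied 95% interval, from -0.25 to 2.43, includes 0.

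The other detected genes of the step were hkdc1, a further member of the hexokinase family, and adpgk and adpgk2, named for the ADP-dependent glucokinase. hkdc1 lies next to hk1 on the same strand, 9.68 kb away, and had a level of 8.79 and a log2 fold of 0.01 per the authors' deposited table. The log2 folds of adpgk and adpgk2 were -2.00 and -2.32, at levels of only 0.485 and 0.421, with adjusted p-values of 0.9999 per the authors' deposited table. Summed over the 6 genes of the step, the approximate level was 38.2 in wild type and 23.1 in the mutant. gck made up 63.4% of the wild-type sum and 5.77% of the mutant sum. hk2 went from 0.347% to 16.3% and hk1 from 11.1% to 39.0%. hkdc1 also went from 22.9% to 38.1%, although its mean was 8.73 in wild type and 8.79 in the mutant. The share of every other gene grows as the gck part of the sum shrinks. These shares rest on deposited means and folds with no replicate error.

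Of the 6 phosphofructokinase genes, 1 rose and 5 did not pass. pfkpa (ENSDARG00000028000, chromosome 24, 3931991 to 3972750), of the platelet type, had a level of 6.65 and a log2 fold of 5.36 (implied SE 1.29, adjusted p = 0.0305) per the authors' deposited table. Its wild-type mean was near 0.162. The other platelet-type copy, pfkpb (ENSDARG00000012801, chromosome 2, 48263458 to 48317321), had a level of 1.0 and a log2 fold of 1.17 (implied SE 1.32, p = 0.375) per the authors' deposited table. Its 3′ part overlaps pitrm1 on the other strand by 1788 bases, and whether the counting used strand is not given, so reads of the overlap are uncertain. pfkla (ENSDARG00000060504, chromosome 9, 53084871 to 53138782), of the liver type, had a level of 3.06 and a log2 fold of -0.56 (implied SE 0.90, p = 0.535) per the authors' deposited table.

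The remaining genes of the step are the second liver-type copy and the muscle-type pair. pfklb had a level of 2.75 and a log2 fold of -0.63, and pfkma, of the muscle type, had 1.91 and -1.74, per the authors' deposited table. pfkmb had a log2 fold of -6.81 with an implied SE of 3.46, at a level of 0.163, per the authors' deposited table. None of these 3 genes passed the authors' threshold. The approximate summed level of the 6 genes was 8.49 in wild type and 12.1 in the mutant. pfkpa held 1.90% of the wild-type sum and 55.1% of the mutant sum, and pfkla and pfklb, with the largest shares in wild type at 36.0% and 32.4%, held 17.2% and 14.7% in the mutant. The shares of pfkla and pfklb also shrink as pfkpa enlarges the mutant sum.

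At the enolase step both copies of the ubiquitous type had positive folds, and 1 of them rose, while the neuronal type had a negative fold that did not pass. eno1b (ENSDARG00000013750, chromosome 6, 40664167 to 40671870) had a level of 36.5 and a log2 fold of 3.96 (implied SE 0.96, adjusted p = 0.0331) per the authors' deposited table. Its wild-type mean was near 2.34. eno1a (ENSDARG00000022456, chromosome 23, 22729926 to 22751447) had a level of 71.5 and a log2 fold of 1.19 (implied SE 0.56) per the authors' deposited table, where its p was 0.0356 and its adjusted p 0.682. It is the 1 member with an unadjusted p under 0.05 that did not pass the adjustment, and 4.43% of all genes were higher and 5.24% lower at that unadjusted p. eno2 (ENSDARG00000014287, chromosome 19, 5156432 to 5174246), of the neuronal type, had a level of 4.66 and a log2 fold of -0.33 (implied SE 1.04, p = 0.750) per the authors' deposited table. A transcript on the other strand, AL772314.1, overlaps eno2 by 1317 bases, at a level of 0.194.

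eno3, the muscle-type gene, had the highest level of the step, 437, with a log2 fold of 0.35 (p = 0.547) per the authors' deposited table. eno4, a distant relative, had -2.51 at a level of 0.993 per the authors' deposited table. eno3 made up 89.7% of the summed enolase level in wild type and 79.6% in the mutant, and eno1b went from 0.610% to 6.64%. The sum was near 384 in wild type and 549 in the mutant. Within it eno3 went from 344 to 437 and eno1a from 31.4 to 71.5, and neither passed. eno1b went from 2.34 to 36.5, so the higher sum is not that of eno1b alone. The means of eno3 and eno1a were above that of eno1b in both genotypes. Paralogs of this family are similar in sequence, and how the authors divided reads that match several of them is not given.

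**Figure D2:**
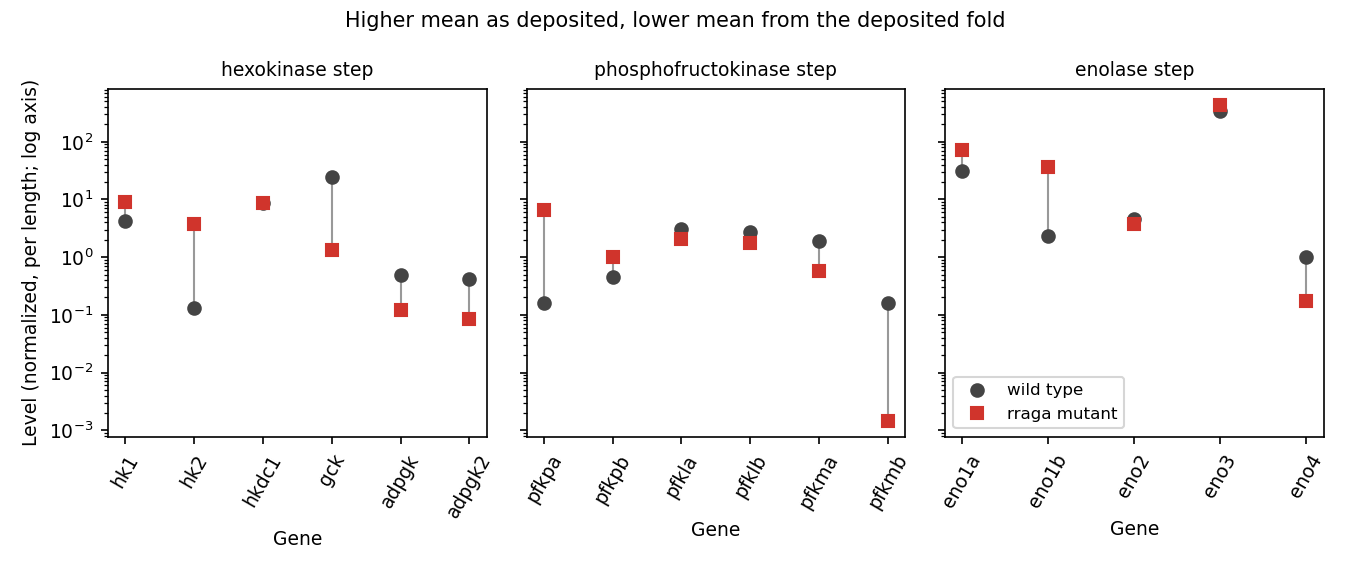
The approximate mean level of each gene in wild type (circles) and in the rraga mutant (squares) on a log axis, with the higher mean as deposited and the lower one obtained from the deposited fold. gck falls from 24.2 to 1.33 while pfkpa, hk2 and eno1b start at 0.162, 0.132 and 2.34 and reach 6.65, 3.77 and 36.5. The lowest point, the mutant mean of pfkmb, comes from a fold with an implied SE of 3.46.

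The spread of folds over all genes depended on level. The central 95% of log2 folds ran from -4.54 to 4.04 over the 4635 genes of level 1 to 3, and from -2.93 to 3.47 over the 4772 of level 3 to 10. It ran from -1.59 to 2.69 over the 3132 of level 10 to 30, and from -1.35 to 1.84 over the 1716 of level 30 to 100. The level is the larger genotype mean, so pfkpa, hk2 and eno1b have theirs from the mutant alone, and gck from the wild type alone. The place of these genes among genes of the same level is not read as a result.

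**Figure D3:**
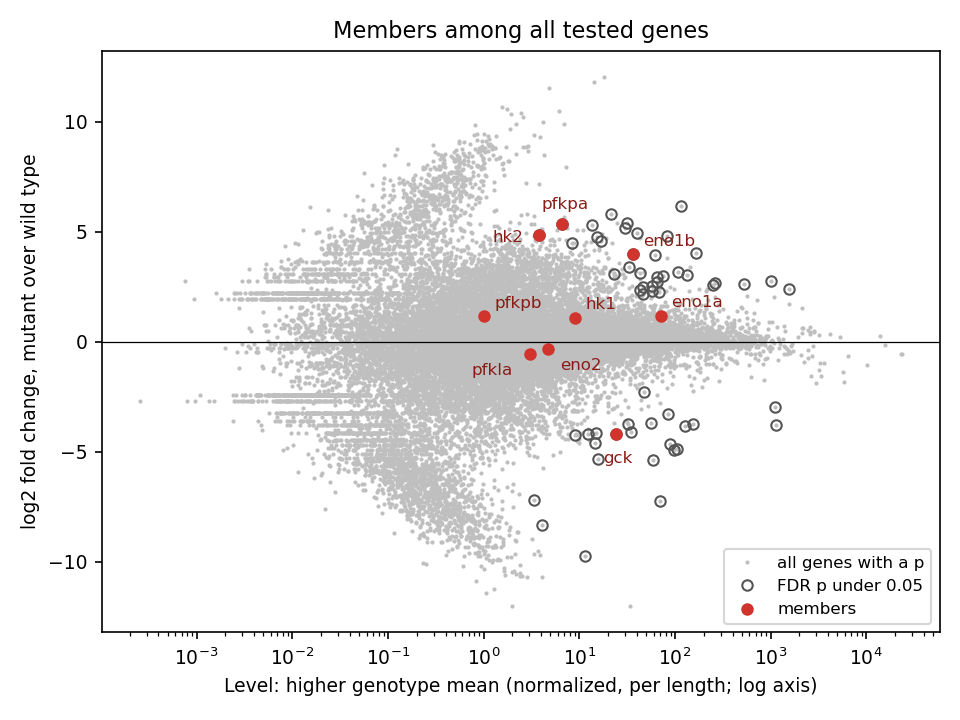
Each gene with a p, by level (log axis) and log2 fold change, with the genes past the authors' FDR p under 0.05 circled and the 9 members in red. The spread of folds widens toward low levels, and pfkpa and hk2, at levels of 6.65 and 3.77, are among the called genes of lowest level.

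The distances between the folds of paralogs are given as values, with no test, since the members were selected on these folds; the SE in brackets is that of the difference and treats the errors of both genes as independent. The fold of hk2 exceeded that of gck by 9.01 on the log2 scale (implied SE 1.58) and that of hk1 by 3.74 (1.39), and hk1 exceeded gck by 5.27 (1.23). pfkpa exceeded pfkla by 5.92 (1.57) and its duplicate pfkpb by 4.19 (1.84), and pfkpb exceeded pfkla by 1.73 (1.60). eno1b exceeded eno2 by 4.29 (1.42) and its duplicate eno1a by 2.77 (1.11), and eno1a exceeded eno2 by 1.52 (1.19).

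Of the duplicate pairs that hold a member, the pfkp and eno1 pairs had 1 copy that rose and 1 that did not pass, and in the pfkl pair neither copy passed. Both copies had the same sign in each of these 3 pairs per the authors' deposited table, but most of these signs belong to genes that did not pass. The copies were 4.19 apart on the log2 scale for pfkp, 2.77 for eno1 and 0.07 for pfkl. Over 11 duplicate pairs of glycolytic genes, these 3 included, 8 had the same sign. Over all 2536 such pairs, 53.0% had the same sign and the median distance was 1.3. Of these, 14 had 1 copy called and 0 had both called. The pfkp, eno1 and pfkl pairs have a level of 1 or more in both copies. Both pfkp copies have that level from the mutant alone, with wild-type means near 0.162 for pfkpa and 0.444 for pfkpb. Over the 1449 pairs of that kind, 54.7% had the same sign and the median distance was 0.86. Of the 1449, 12 had 1 copy called and 0 had both called. The members were selected on their folds, so the distances within their pairs are not read against these medians.

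**Figure D4:**
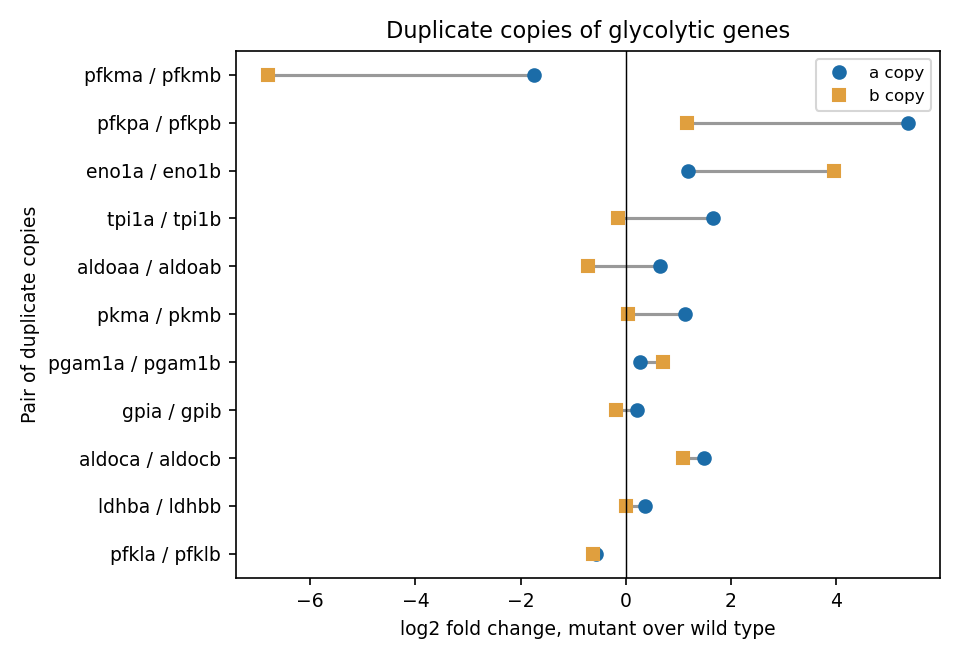
Log2 fold changes of the a copy (circle) and b copy (square) of 11 duplicate pairs of glycolytic genes, ordered by their distance. The pfkma and pfkmb pair, the pfkpa and pfkpb pair (4.19 apart) and the eno1a and eno1b pair (2.77 apart) are the widest, and pfkmb lies at a level of only 0.163.

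The members lie on 9 different chromosomes, with 0 on chromosome 14, where rraga itself lies. Of the nearest tested genes on either side of each member, 18 in all, 0 passed the authors' FDR p under 0.05 and 1 had an unadjusted p under 0.05, against 9.66% of all genes. This was myl7, a cardiac myosin light chain gene 12.2 kb from gck, with a level of 1.97 and a log2 fold of -6.79 (p = 6.13e-04, adjusted p = 0.183) per the authors' deposited table. rereb starts 1.93 kb after eno1b on the same strand and had a log2 fold of -0.07, and rerea, the next gene after eno1a, had 0.17, per the authors' deposited table. klf6a, the nearest tested gene after pfkpa at 137 kb, had 0.13 per the authors' deposited table. klf6b, chosen after its values were seen, lies 35.4 kb from pfkpb and had 4.38 at a level of 0.936 (p = 0.0835) per the authors' deposited table. The eno1 and pfkp pairs thus have related genes nearby, with a rere gene after each eno1 copy and a klf6 gene near each pfkp copy. The distances differ, with rerea 107 kb from eno1a and rereb 1.93 kb from eno1b. The surroundings of the pfkl pair were not compared. Of the 3 nearest tested genes on each side of each member, 54 in all, 0 passed the threshold. Over all genes 0.221% did, so this count is not read as a result. At an unadjusted p under 0.05 there were 6 of the 54. Among them, beside eno1b, were slc6a11a with -4.90 (level 0.194) and RNF223 with -6.88 (level 0.407).

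**Figure D5:**
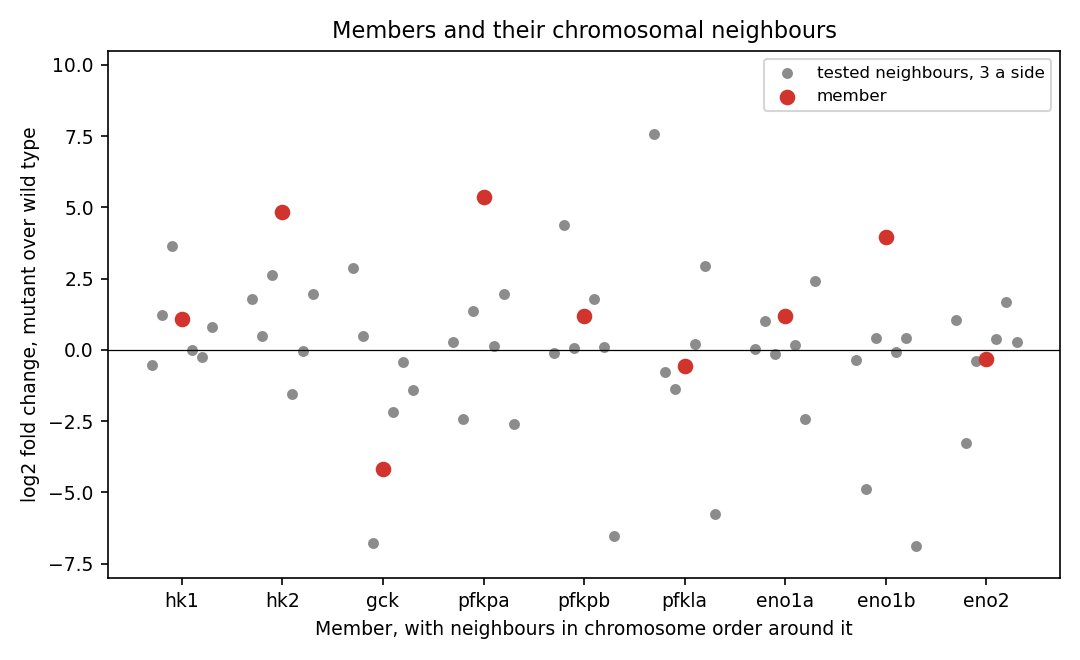
Log2 fold change of each member (large red points) and of the 3 nearest tested genes on each side (grey points, in chromosome order and not to scale). pfkpa, hk2 and eno1b lie above every neighbour shown beside them, and beside gck the neighbour myl7 lies lower, at -6.79. The members were selected on their folds, so their place among their neighbours is not read as a result.

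No gene of the other glycolytic steps passed the threshold. Over all genes with a p, 0.221% passed it and 4.43% were higher at an unadjusted p under 0.05. The counts of this short list are therefore not read as a result. The 22 detected genes of the other glycolytic steps had 16 higher and 6 lower values, with a median log2 fold of 0.25 against 0.02 over all genes, of which 51.0% were higher; 0 passed the authors' threshold, and 1 was higher at an unadjusted p under 0.05. That gene was tpi1a, a triosephosphate isomerase gene 3.49 kb from eno2, with a log2 fold of 1.67 (p = 0.0373, adjusted p = 0.682) per the authors' deposited table. gapdh, the gene of highest level of that list, had a log2 fold of -0.40 per the authors' deposited table. The list was drawn up with earlier results of these data known.

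No tested regulator of glycolysis passed either. Over all genes with a p, 0.221% passed and 9.66% had an unadjusted p under 0.05. The counts in lists as short as those below are not read as results. Among 21 tested regulators of glycolysis, among them the bifunctional pfkfb enzymes that make and break the activator of phosphofructokinase, the hypoxia factors and myc, 13 had higher and 8 lower values and the median was 0.20; 0 passed the authors' threshold and 0 had an unadjusted p under 0.05. mycb and hif1al, of highest level, had log2 folds of 0.20 and -0.28 per the authors' deposited table. gckr, which encodes the glucokinase regulatory protein of liver, is listed at 0. Of 11 genes of gluconeogenesis, the reverse pathway, 5 had higher and 6 lower values, the median was -0.19, and 0 passed (1, fbp2, had an unadjusted p under 0.05). fbp1b and pck1, of highest level there, had 0.02 and 0.30 per the authors' deposited table. fbp2, a fructose bisphosphatase gene chosen after its values were seen, had 3.17 at a level of 47.7 (p = 0.00638, adjusted p = 0.473) per the authors' deposited table.

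Markers of other cell types were present, and some of them passed the threshold. Over all genes with a p, 0.221% passed it, 9.66% had an unadjusted p under 0.05 and 51.0% were higher. The median log2 fold over all genes was 0.02. The counts and medians below come from short lists and are not read as results. Of the oligodendrocyte markers 18 of 18 had a level above 0, as did 14 of 14 liver markers, so this count does not show cell identity. mbpa, which encodes myelin basic protein, had a level of 5321 and plp1b had 3005 per the authors' deposited table. aspa and olig1 were at only 0.517 and 0.490. The 18 oligodendrocyte markers had a median log2 fold of -0.65, 1 fell (mpz, -2.96) and 17 did not pass. At an unadjusted p under 0.05, 3 of the 18 were lower, mpz, plp1b with -1.89 and nkx6.2 with -1.20, and 0 were higher. Liver markers held 10.95% of the summed level and oligodendrocyte markers 2.14%. That sum takes the larger genotype mean of each gene and is not the total of a library. Of the liver markers 14 of 14 were lower, by a median of -0.57, and 0 passed. Of 17 markers of islet and endocrine cells 10 were lower, with a median of -0.51, and ghrl and npb fell, with log2 folds of -7.24 and -5.33, per the authors' deposited table; of the others, none passed. Chosen after their values were seen, the insulin gene ins had -2.92 (p = 0.0614) and chga -1.60, while neurod1 had 2.54 (p = 0.0154), the glucagon gene gcga 2.10 (p = 0.0683), pax6b 1.94, sst1.1 1.52 and sst2 0.83, per the authors' deposited table. Of 22 tested rod and cone markers 9 were higher and 13 lower; 4 rod genes fell, with rho at -3.76, and the cone gene opn1sw1 rose by 4.04 on the log2 scale, per the authors' deposited table. nrl, of rods, is listed at 0. The median was -0.54 over 14 neuronal markers, 1 of them eno2, and -0.20 over 17 skeletal muscle markers, of which eno3 and pfkma are 2; 7 of the 17 were higher and 10 lower, and pygma fell by 8.32 on the log2 scale, while myhz2 had 2.98 (p = 0.0124), ckmb 2.30 (p = 0.0578) and ckma 1.55, chosen after their values were seen, per the authors' deposited table. Erythrocyte markers were higher in 9 of 11, with a median of 1.3 and 1, hbae1.3, past the threshold. Of 18 tested macrophage markers 8 had higher and 10 lower values and the median was -0.18, or 0.52 over the 13 of level 1 or more; 0 passed, and c1qa is listed at 0. At an unadjusted p under 0.05, 4 macrophage markers were higher, ctss2.2 with 4.59, mpeg1.2 with 4.21, marco with 3.68 and mfap4 with 2.60, and 1 was lower, cd74a with -8.18, per the authors' deposited table. Astrocyte and radial glia markers had a median of 0.08 over 13 genes, of which hepacama fell. The part of these cell types in the folds of gck, hk2, pfkpa and eno1b was not tested. With the lower mean again taken from the deposited fold, the summed level of the markers was near 68934 in wild type and 49231 in the mutant for liver, 281 and 280.3 for islet and endocrine cells, 2209 and 1339 for rods and cones, and 1176 and 3942 for erythrocytes. The summed level was near 296 and 244 for neurons, 2533 and 2660 for skeletal muscle, 1679 and 1454 for macrophages, 1294 and 1066 for astrocytes and radial glia, and 12500.2 and 9402 for oligodendrocytes. Most of the macrophage sums came from apoc1, which went from 1413 to 1179, and apoeb, from 232 to 210. The macrophage marker next in level, mfap4, went from 4.56 to 27.7. The macrophage sums thus say little about the other markers of that list. The rod and cone sums join opposite changes, with rho going from 1128 to 83.1 and opn1sw2 from 34.6 to 180. At an unadjusted p under 0.05, the 5 lower were rod genes, rho, gnat1, gngt1, sagb and saga. The 5 higher were cone genes, opn1sw1, opn1sw2, gngt2a, gnat2 and pde6c. The cone genes opn1lw1, opn1mw1 and gngt2b had -1.28, -0.38 and -0.24 per the authors' deposited table. The joint sums thus give the direction of neither cell type alone.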

How the data were processed

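Reads from sorted Cldnk:GFP-positive zebrafish cells were, per the submitters' processing notes, placed on GRCz11; the aligner, counter, annotation release and statistical method were not given in the sources used here. The values are the authors' comparison, titled mutant against control: per the file headers, a maximum group mean (a normalized signal), a log2 fold change, a signed fold and p-values, raw, FDR-adjusted and Bonferroni-adjusted. The 8569 genes of level 0 hold a spreadsheet error in place of a fold and p and were not used here.

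The level was checked for a length term. Of 336 genes with the same log2 fold (-2.43) and p (0.435), 43 shared 1 product of level and genomic span (16.6, tolerance 1e-06), although the 336 levels ran from 0.00108 to 0.296. The products 16.6 and 11.9 (wild type) and 14.8 and 11.2 (mutant) recurred, as single reads in 4 libraries would give, with 33.1, 29.5 and 22.4 as doubles. If the level is a mean RPKM of 2 libraries, these are 30.2 M, 42.0 M, 33.8 M and 44.7 M reads; otherwise the depth is unknown.

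Calls (the authors' FDR p under 0.05), list counts and medians, and Benjamini-Hochberg adjustments were computed with Python 3.11.15, pandas 2.3.3 and scipy 1.17.1. On simulated data the Benjamini-Hochberg adjustment was compared with that of scipy. The implied SE was recovered from normal values drawn with that same SE, which cannot show whether the authors' test was normal. List counts and medians were not checked in this way. Named genes are the members, the other detected genes of their steps, genes beside them and, from other lists, those called and the 2 of highest level, of which the marker lists show a part and 1 gene of the glycolytic list is not reported here. Members and lists were chosen with earlier results of these data known. Planned protein and promoter comparisons were not made, and no sequence was used here.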

Additional observations from a re-analysis of the deposited data

How the results depend on the processing

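The fold of each member is the authors' and does not depend on the settings tried, which change only the adjustment. At the authors' FDR p under 0.01, pfkpa (0.0305), eno1b (0.0331), gck (0.0363) and hk2 (0.0413) were no longer called, and by the authors' Bonferroni p each of the 4 was at 1. All 4 passed with the Benjamini-Hochberg adjustment of the authors' p restricted to genes with a p, or to those of level 1 or more. This adjusts the p-values on which the members were selected, so it lends the calls no support. pfkpa and hk2 reach level 1 through the mutant alone, with wild-type means near 0.162 and 0.132. Over genes of level 10 or more, eno1b and gck passed, while pfkpa and hk2 lie under that level and were not tested. There eno1b enters through the mutant alone (wild-type mean near 2.34) and gck through the wild type alone (mutant mean near 1.33). The 5 other members passed under none of these settings in which they were tested. The numbers of genes called higher and lower were 11 and 9 at the FDR p under 0.01, 8 and 6 by Bonferroni, 66 and 47 with only genes of level 10 or more adjusted, 48 and 42 with those of level 1 or more, and 34 and 28 with all genes that have a p. With fewer genes tested the adjustment is milder, and the level filter is not independent of the fold. The median log2 fold of the hexokinase step was 0.55 over its 4 genes of level 1 or more, in place of -1.0, because adpgk and adpgk2 were left out, and -4.18 at level 10 or more, where gck alone remained. At level 10 or more the median changed sign for regulators of glycolysis (-0.043), gluconeogenesis (0.10), the pentose phosphate pathway (-0.047), rods and cones (0.11) and astrocytes and radial glia (-0.24), as did that of macrophages at level 1 or more (0.52). At level 10 or more it was 1.19 for the enolase step, -1.60 for islet and endocrine cells and 1.73 for erythrocytes. The other 22 list medians recomputed kept their sign and moved by less than an error of the median that treats genes as independent. Centring on the median of 20 level classes moved the 9 paralog differences by at most 0.16. No paired analysis was possible because the table holds no value per replicate, and for the same reason no replicate could be left out. The planned local alignment of proteins was not run.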

Other observations

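None of the listed genes on either side of glycolysis passed the authors' threshold, which 0.221% of all genes with a p passed. At an unadjusted p under 0.05 the share of all genes was 9.66%. Counts in lists this short are not read as results. Of 11 pentose phosphate pathway genes, which branch from the product of hexokinase, 6 were higher and 5 lower with a median log2 fold of 0.06, and 0 passed the authors' threshold or had an unadjusted p under 0.05. taldo1 and pgd, of highest level, had log2 folds of 0.06 and 0.71 per the authors' deposited table. Of 16 genes for the entry of pyruvate into mitochondria, 10 had higher and 6 lower values, the median was 0.07, and 0 passed. mpc1, a subunit of the mitochondrial pyruvate carrier, and pdhb, of pyruvate dehydrogenase, had 0.06 and 0.10 per the authors' deposited table. Among the kinases that inhibit pyruvate dehydrogenase, chosen after their values were seen, pdk1 had -3.55 (p = 0.0345, adjusted p = 0.680) at a level of 2.54 and pdk3b had 3.32 (p = 0.0909) at 0.902 per the authors' deposited table.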
